A study of Mus musculus with 2 samples.

Results

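The genes described here were 9 transcription factors that act one after another as an intestinal progenitor becomes a hormone-producing enteroendocrine cell. They were chosen by gene symbol, with no threshold on a measured value but with earlier results of these data known, and all 9 of 9 names were found among the 19294 genes of the count table. Transcripts were counted by mRNA-seq of mouse intestinal organoids (mIOs), which are epithelial cultures grown from jejunal crypts in Matrigel, with EGF, Noggin and R-spondin in the medium. The libraries were 1 control culture and 1 culture given dextran sulfate sodium (DSS) for 4 days. DSS is a sulfated sugar polymer that damages epithelial cells. Both cultures carried the genotype Lgr5-EGFP-IRES-creERT2, in which EGFP and an inducible Cre are expressed from the Lgr5 locus of stem cells. The control was labelled with the same day 4. The age and sex of the animals, the number of animals behind a culture and the DSS concentration of the sequenced culture are not given in the sources used here.

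With 1 library per condition there was no replicate check of any difference. No test between conditions was made, and each interval given below is a 95% interval that covers counting error only. The control library summed to 65493032 counts and the DSS library to 59746968. The table lists only genes with 1 count or more in each library, so a gene that is not in the table was not analysed here and cannot be read as absent. In bulk RNA, more cells of a type and more RNA per cell cannot be told apart.

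Enteroendocrine cells are scattered through the gut epithelium and release peptide hormones and serotonin. They arise from secretory progenitors that escape Notch signaling and express Atoh1, and the basic helix-loop-helix factor Neurog3 is switched on for a short time to commit a cell to the endocrine fate. Neurog3 then gives way to factors that are kept for longer, of which Neurod1 and Insm1 come first and Pax6, Isl1, Rfx6, Nkx2-2 and Fev are found in hormone-producing cells. Accordingly, Neurog3, Neurod1, Insm1 and Pax4 are called early here and the other 5 late, although several late factors are already present while Neurog3 is on.

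The promoters of the progenitor factor and of a pair of factors with higher counts under DSS are printed to show annotated start sites of these genes. Which start sites were used in these cultures was not measured. Promoter sequences of RefSeq on the build GRCm38.p6, with 250 bases before and 50 bases after a start site, matched 7 of the 9 genes. The windows are chr10:62132840-62133139 on the plus strand for Neurog3, chr2:79456587-79456886 on the minus strand for Neurod1 and chr2:147186353-147186652 on the minus strand for Nkx2-2. Each sequence reads 5′ to 3′ along the gene. Capitals mark the E-box CANNTG, the core bound by basic helix-loop-helix factors such as Neurog3 and Neurod1, and the N-box CACNAG, a core bound by the Hes repressors of the Notch pathway. Both strands were searched, and no E-box overlapped an N-box in these windows.
Neurog3: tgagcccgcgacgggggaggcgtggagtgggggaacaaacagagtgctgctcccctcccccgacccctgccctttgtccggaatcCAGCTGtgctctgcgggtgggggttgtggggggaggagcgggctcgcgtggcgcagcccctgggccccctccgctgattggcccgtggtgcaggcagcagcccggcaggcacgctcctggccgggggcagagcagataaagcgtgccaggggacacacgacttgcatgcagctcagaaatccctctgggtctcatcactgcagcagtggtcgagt
Neurod1: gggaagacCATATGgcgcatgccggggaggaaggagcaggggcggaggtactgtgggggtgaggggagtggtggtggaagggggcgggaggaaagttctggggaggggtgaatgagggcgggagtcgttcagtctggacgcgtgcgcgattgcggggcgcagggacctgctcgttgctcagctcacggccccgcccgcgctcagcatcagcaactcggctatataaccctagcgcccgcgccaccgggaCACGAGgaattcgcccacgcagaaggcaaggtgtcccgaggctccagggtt
Nkx2-2: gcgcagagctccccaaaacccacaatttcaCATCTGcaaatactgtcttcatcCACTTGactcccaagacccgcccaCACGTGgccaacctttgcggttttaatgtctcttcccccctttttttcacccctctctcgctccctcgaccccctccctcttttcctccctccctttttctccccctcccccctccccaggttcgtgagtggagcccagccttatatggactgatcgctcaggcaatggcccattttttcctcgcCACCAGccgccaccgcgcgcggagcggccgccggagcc

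The Neurog3 window held 1 E-box, whose first base lies 165 bases before the start site, and no N-box. The Neurod1 window held 1 E-box at 242 bases before its start site. In the Nkx2-2 window there were 3 E-boxes, at 220, 197 and 173 bases before the start site. The first of these is CATCTG, which reads CAGATG on the other strand. That form was found in 17.15% of 32851 promoter windows, whereas any E-box was found in 72.31% and an N-box in 42.48%. Of the 8 windows of the members, which include 2 start sites of Pax6, 6 held an E-box and 4 an N-box. These matches describe letters in the windows, and binding was not measured.

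The factor of the progenitor and the factors of the later cells differed in opposite directions. Neurog3 had 692 counts in the control and 60 under DSS. On the scale of counts per 1000000 (CPM), computed with the TMM library factors of edgeR, this was 9.67 CPM in the control and 1.10 CPM under DSS. The level of Neurog3 was thus 8.81-fold lower in the DSS library, with an interval from 6.76 to 11.7 for this fold. Its log2 ratio, DSS over control, was -3.14 with an interval from -3.54 to -2.76. The ratio was computed for 17235 genes that reached 10 counts in one of the libraries or both, and 2.18% of them lay lower than Neurog3. With 2 libraries the pattern of a gene is a single ratio, and 156 of the tested genes, Neurog3 included, had a log2 ratio within 0.25 of that of Neurog3.

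The first factors after Neurog3 were higher in the DSS library. Neurod1, a helix-loop-helix factor that takes over from Neurog3 and holds cells out of division, had 423 counts in the control library and 713 under DSS. This was 5.91 and 13.0 CPM, and the log2 ratio was 1.14 (interval 0.97 to 1.32). Insm1, a zinc-finger repressor of endocrine and neuronal precursors, had 469 and 1001 counts. Its level was 6.55 CPM in the control and 18.3 CPM under DSS, and the log2 ratio was 1.48 (interval 1.32 to 1.64). Neither gene therefore followed Neurog3, although both are placed among the early factors.

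Pax4, a paired-box repressor that favours some endocrine fates over others, was the other early factor with a lower level under DSS. It was the least abundant member, with 40 counts in the control and 19 under DSS, or 0.559 and 0.348 CPM. The log2 ratio was -0.69, and its interval from -1.56 to 0.14 included 0. A difference of Pax4 was therefore not detectable at this depth under TMM scaling. Scaled by library totals alone, Pax4 was at -0.94, and that interval, from -1.81 to -0.12, excluded 0. Whether the interval of Pax4 included 0 thus depended on the scaling.

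All 5 late factors were higher in the DSS library, by 2.60-fold to 4.30-fold. Pax6, a paired-box and homeodomain factor that drives hormone genes such as that of proglucagon, had 163 counts in the control and 535 under DSS. This was 2.28 and 9.79 CPM, and its log2 ratio of 2.10 (interval 1.85 to 2.37) was the highest of the 9 factors. Nkx2-2, a homeodomain factor that directs the choice between hormone cell types, had 308 and 818 counts. Its log2 ratio was 1.80, with an interval from 1.61 to 1.99.

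Rfx6, a winged-helix factor needed for the endocrine cells of gut and pancreas, had 463 counts in the control library and 1124 under DSS, the most of any member there. Its log2 ratio was 1.67, with an interval from 1.51 to 1.83. Fev, an ETS factor known from serotonin neurons and serotonin-producing enterochromaffin cells, had 263 and 593 counts. Its log2 ratio was 1.56 (interval 1.35 to 1.78). The lowest ratio of the late factors was that of Isl1, a LIM-homeodomain factor of hormone cells. It had 136 and 270 counts, and the log2 ratio was 1.38 (interval 1.08 to 1.69).

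**Figure D1:**
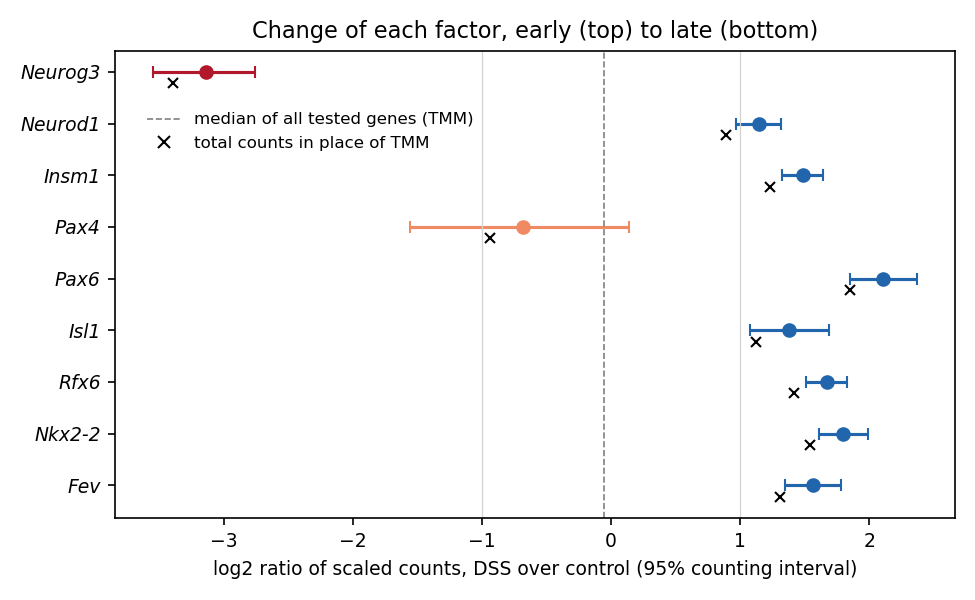
Log2 ratio of TMM-scaled counts, DSS over control, for each factor with its 95% counting interval (points and bars, 1 library per condition); crosses show the ratio with total counts only, the dashed line is the median of all tested genes at -0.06, and the light lines mark 2-fold differences. Neurog3 at -3.14 and Pax4 at -0.69 lie on the left, and the 7 others lie between 1.14 and 2.10.

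Counted against a 2-fold line, 7 of 9 factors were higher under DSS and 1 was lower, Neurog3. Among the 17235 genes tested, 19.3% were at least 2-fold higher and 20.2% at least 2-fold lower, with a median log2 ratio of -0.06. At the 4-fold line, 1 factor was higher, Pax6, beside 7.87% of the tested genes, and 1 was lower, Neurog3, beside 6.54%. The choice of library scaling moved every gene alike by 0.26 on the log2 scale between TMM factors and total counts. With total counts only, the median of the tested genes was -0.31 and 15.4% of them were at least 2-fold higher and 26.2% at least 2-fold lower. Of the genes past the 2-fold line, 48.9% were higher under TMM scaling, against 37.1% when total counts were used. Under total counts, 6 factors were at least 2-fold higher, since Neurod1 was then at 0.89, and Pax6 at 1.85 was no longer past the 4-fold line. No scaling changed the sign of any of the 9 ratios.

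The library scale cancels when the counts of one factor are set against those of another, so the contrast of Neurog3 with the other factors does not depend on it. Relative to Neurog3, Pax6 was 37.9-fold higher in the DSS library than in the control, with an interval from 27.3 to 52.8. The same relative fold was 30.6 for Nkx2-2, 28.0 for Rfx6, 26.0 for Fev, 24.6 for Insm1, 22.9 for Isl1 and 19.4 for Neurod1. Pax4 differed least from Neurog3, at 5.48-fold, with an interval from 2.80 to 10.4. All 8 intervals of Neurog3 against another factor excluded a fold of 1.

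The log2 ratios of the 7 factors with higher counts spanned 1.14 to 2.10. In the order of their log2 ratios they were Neurod1, Isl1, Insm1, Fev, Rfx6, Nkx2-2 and Pax6. No neighbours in this order were separated by their counting interval. Over the 21 pairs of these factors, 11 had an interval of the difference that excluded 0, and each of these 11 held either Neurod1, Pax6 or Nkx2-2. Neurod1 lay 0.34 below Insm1 on the log2 scale, with an interval of the difference from -0.58 to -0.10, and 0.96 below Pax6. Neurod1 and Isl1 were not separated, with an interval from -0.59 to 0.12, nor were Pax6 and Nkx2-2, with an interval from -0.02 to 0.63. Within this group, Insm1 and Isl1 were also not separated, so that the order did not split cleanly into early and late factors. No adjustment was made for the 36 pairs of members.

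As groups, the early factors together had 1624 counts in the control library and 1793 under DSS, and the late factors 1333 and 3340. The summed log2 ratio was 0.53 for the early factors, with an interval from 0.43 to 0.63, and 1.71 for the late factors, with an interval from 1.62 to 1.81. A sum follows its most abundant gene, and Neurog3 held 42.6% of the early counts in the control library while Insm1 held 55.8% of them under DSS. The early factors without Neurog3 had a summed log2 ratio of 1.28. Their medians were 0.23 for the 4 early and 1.67 for the 5 late factors, beside -0.06 for all tested genes.

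Per length of transcript, Neurog3 was first of the 9 factors in the control library and eighth under DSS. Lengths were taken from GENCODE transcripts matched to the listed RefSeq accessions. The level of Neurog3 was 6.28 CPM per kilobase in the control and 0.713 CPM per kilobase under DSS. Nkx2-2 followed it in the control library at 2.71, then Fev at 2.47, Neurod1 at 2.17, Insm1 at 2.11 and Rfx6 at 1.97 CPM per kilobase. Neighbours among these 5 were not separated by their counting intervals. Pax6 at 0.802, Isl1 at 0.755 and Pax4 at 0.439 CPM per kilobase were the lowest, and Pax6 and Isl1 were not separated.

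Under DSS, the per-length order was led by Nkx2-2 at 9.43 CPM per kilobase, then Fev at 7.28, Rfx6 at 6.28, Insm1 at 5.91 and Neurod1 at 4.78. Pax6 at 3.45 and Isl1 at 1.96 came next, above Neurog3, and Pax4 was last at 0.273 CPM per kilobase. Only Rfx6 and Insm1 were neighbours that were not separated, although this order also rests on the transcript lengths, whose error is not in the intervals. Neurog3 took 31.9% of the summed per-length levels of the 9 factors in the control and 1.78% under DSS. With the longest protein-coding transcript as the length instead, Fev led under DSS with 20.2% of these levels, ahead of Nkx2-2 with 19.6%. In raw counts, the share of Neurog3 in all counts of the members was 23.4% in the control library, with an exact binomial interval from 21.9% to 25.0%. Under DSS it was 1.17%, with an interval from 0.893% to 1.50%.

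**Figure D2:**
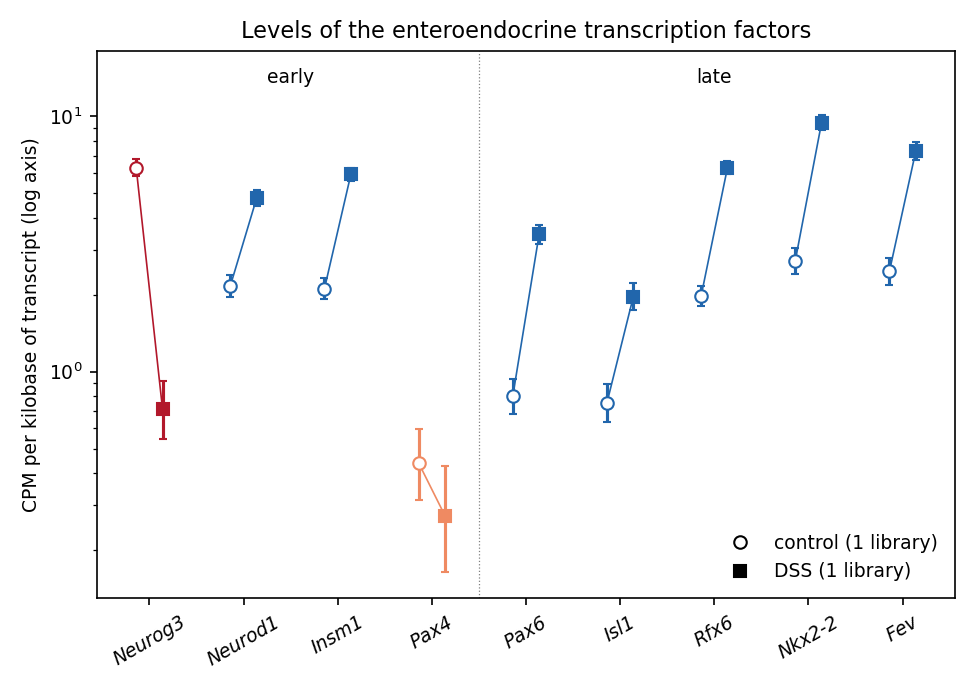
Level of each factor in CPM per kilobase of transcript on a log axis, in the control library (open circles) and the DSS library (filled squares), with exact Poisson 95% intervals of the counts and a line joining the libraries. Neurog3 goes from the highest level in the control, 6.28, to 0.713, while 7 factors lie higher in the DSS library and the intervals of Pax4 overlap.

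The products of mature enteroendocrine cells were also higher under DSS, and their sum had a higher log2 ratio than any of the 9 factors. The 16 listed genes of 17 hormones and granins had a median log2 ratio of 2.58. All 16 were at least 2-fold higher, beside 19.3% of all tested genes. Chgb, a granin of secretory granules and the most abundant of them, had 43545 and 164158 counts. Chga, the common marker of these cells, had 5141 and 23825 counts, a log2 ratio of 2.60. The paper, by contrast, reports from RT-PCR that Chga stayed at a similar level in DSS-treated mIOs. The source of this difference was not tested. The largest ratios were those of the peptides Nts at 3.67 and Sct at 3.46, and Gcg, the proglucagon gene, was at 3.04. The smallest were those of Pyy at 1.56 and Scg5 at 1.94, and both, like that of Tac1, lay within the range of the late factors. Insl5 is not in the table. Summed over the list, the counts went from 65737 to 264827, a log2 ratio of 2.40. The 8 listed genes for granule proteins and prohormone processing had a median of 1.85 and a range from 1.46 (Pcsk1n) to 3.40. All 8 were likewise at least 2-fold higher, beside the same 19.3%. Their range overlaps that of the factors, and it includes the granule membrane protein Ptprn at 3.40, Resp18 at 3.13 and the prohormone convertase Pcsk1 at 2.57.

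Set against these products, each of the 9 factors was lower in the DSS library. For 1000 hormone and granin counts there were 10.5 counts of Neurog3 in the control and 0.227 under DSS. For Pax6 these values were 2.48 and 2.02, for Rfx6 7.04 and 4.24, and for Neurod1 6.43 and 2.69. On the log2 scale, the factors minus the summed products ranged from -5.54 (Neurog3) to -0.30 (Pax6). The intervals excluded 0 for all 9 factors, that of Pax6 closely, from -0.55 to -0.03. With the granule and processing genes as the reference, the interval of Pax6 included 0, from -0.30 to 0.22, and the 8 others stayed below. Among the 7 factors with higher counts, Neurod1 and Isl1 lay lowest beside the hormones, at -1.26 and -1.02.

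**Figure D3:**
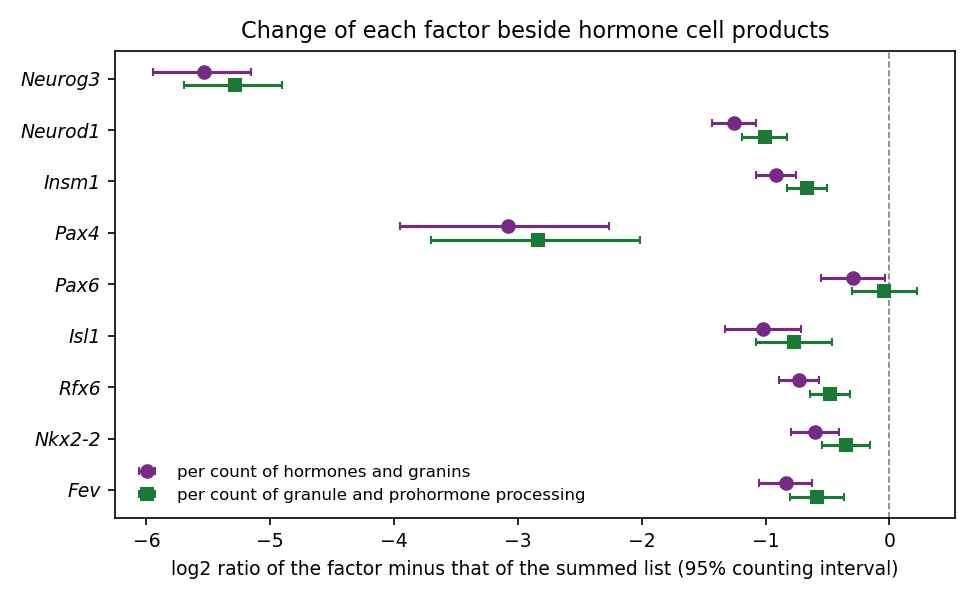
Log2 ratio of each factor minus the log2 ratio of the summed hormone and granin counts (circles) or of the summed granule and prohormone processing counts (squares), with 95% counting intervals; the dashed line marks an equal change. Neurog3 at -5.54 and Pax4 at -3.08 lie farthest below the hormones and granins, and Pax6 lies nearest to them at -0.30.

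Most listed genes of secretory commitment and Notch signaling were not lower under DSS. Of 8 such genes, 7 had a log2 ratio above 0 and 3 were at least 2-fold higher, with a median of 0.92. Of all tested genes, 48.0% lay above 0 and 19.3% were at least 2-fold higher. The interval of Hey1, with 11 and 16 counts, included 0. Atoh1, which specifies the secretory progenitor, had 89 counts in the control library and 647 under DSS, and its log2 ratio was 3.25 (interval 2.93 to 3.59). Spdef, a factor of goblet and Paneth cells, was at 2.43 and the Notch ligand Dll1 at 1.14. Notch1 was lower, at -0.99. Hes1, the Notch-responsive repressor of Atoh1 and Neurog3, was at 0.30 with TMM factors (interval 0.23 to 0.37) and at 0.04 with total counts, where the interval from -0.03 to 0.12 included 0.

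Genes known to accompany Neurog3 in endocrine progenitors were mixed. Of 9, 6 lay below 0 and 3 above, with a median of -0.54, while 48.0% of all tested genes lay above 0. The interval of Btbd17, with 15 and 9 counts, included 0. Sox4, an SRY-box factor of progenitors, went from 6870 to 1158 counts, a log2 ratio of -2.18, and the corepressor Rcor2 from 2404 to 514 counts, a ratio of -1.84. On the other side, the kinase Pak3 was at 2.46 and the zinc-finger factor Myt1 at 1.81. Sox4 and Rcor2 are also expressed in other epithelial cells, which bulk counts do not separate.

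Other transcription factors of enteroendocrine cells differed in both directions. Of 17 names, 16 were in the table, 11 of them with a log2 ratio above 0 and 5 below, and 7 were at least 2-fold higher. Among all tested genes, 48.0% were above 0 and 19.3% at least 2-fold higher. With total counts only, 9 of the 16 were above 0. The intervals of Rfx3 and Foxa3, counted among the 11, included 0. Lmx1a, a LIM-homeodomain factor of enterochromaffin cells, was at 2.33, and the ETS factor Etv1 at 2.32. The factors with a lower level, Tox3 at -1.31, Foxa1 at -0.66, Pdx1 at -0.65, Foxa2 at -0.38 and Mnx1 at -0.33, include ones that are broadly expressed in the gut epithelium, and the interval of Mnx1 included 0. The list's median was 0.86.

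**Figure D4:**
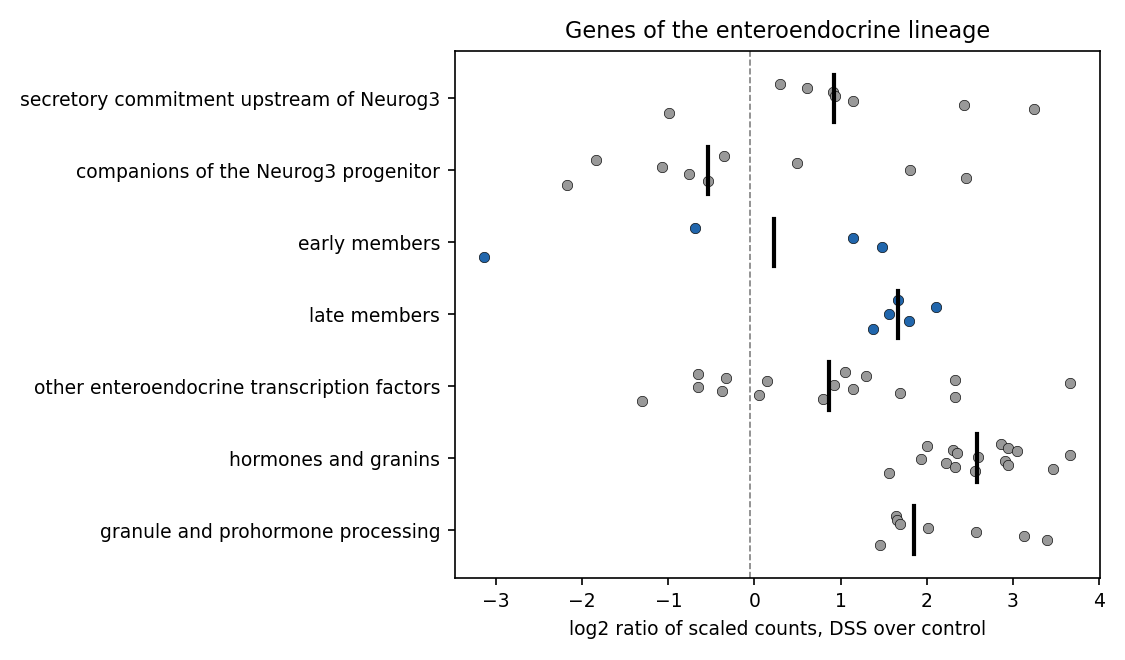
Log2 ratio of each tested gene, DSS over control, in 7 lists of the enteroendocrine lineage (points; 1 library per condition), with list medians as black bars and the median of all tested genes, -0.06, as a dashed line. The late members lie between 1.38 and 2.10, below most hormones and granins, while the early members are spread from -3.14 to 1.48.

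Markers of other cells were read beside these values, since several of the factors are also used by neurons and pancreatic islets. The labels give the cell type as intestinal stem cells, whereas both libraries held products of differentiated cells such as Krt20 and Chgb. All 9 genes of the intestinal epithelium were in the table, and summed they were at 6107 CPM in the control and 10411 CPM under DSS. Their median log2 ratio was only 0.04, with 6 above 0 (4 with total counts) and 3 below. Epcam was at 0.03, Krt18 at 0.04, Cdh1 at -0.03, Cdx1 at -0.61 and the homeobox factor Cdx2 at -1.35. Krt20, a keratin of differentiated cells, was at 3.99, Vil1 at 1.25, Krt19 at 1.15 and Krt8 at 0.84. For Vil1, the paper reports a similar level in DSS-treated mIOs by RT-PCR. Of 14 names for enteric neurons, 7 were in the table, and those not in it included Phox2a, Hand2, Chat, Nos1, Vip and Prph. The 7 listed summed to 18.5 and 90.8 CPM, of which Ret, at 8.16 and 60.5 CPM, made up most under DSS. Ret, Nefl, Snap25 and Elavl4 were at least 4-fold higher under DSS, Elavl4 on only 4 and 13 counts. Nefm was at 1.30, and the intervals of Tubb3 (73 and 68 counts) and Elavl3 (21 and 11 counts) included 0. Enteroendocrine cells are known to express Ret and Snap25 as well.

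Among 6 glial names, Sox10, Gfap and Foxd3 were not in the table. The 3 others summed to 212 CPM in the control and 513 CPM under DSS, nearly all of it Erbb3, which the gut epithelium also expresses. Of these 3, 2 had a log2 ratio above 0 and 1 below, and S100b went from 116 to 488 counts. Of 8 islet names, 4 were in the table and the insulin genes Ins1 and Ins2 were not. Slc2a2, which enterocytes also use, accounted for nearly all of their 51.1 and 401 CPM, and Iapp had 10 and 68 counts. The intervals of Mafa and Nkx6-1, the others listed, included 0. The 4 listed of 8 mesenchymal genes together reached 1.44 and 2.10 CPM, with Pdgfrb at 67 and 64 counts. Of 8 immune names, 5 were in the table, at 16.7 and 28.9 CPM, and those not in it included Ptprc and Cd3e. Of the 5, 4 had a log2 ratio above 0, among them Itgam at 1.14, Cd14 at 0.75 and Cd68 at 0.73, and Lyz2 was below it at -0.56, with 137 and 71 counts. The part of these cells in the values of the factors was not tested.

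Dividing-cell genes were lower under DSS as well. Of 6 such genes, a list chosen after the values were seen, all had a log2 ratio below 0, with a median of -3.84. At least 4-fold lower were 5 of them, beside 6.54% of all tested genes. Mki67 went from 29090 to 1367 counts. Mcm2 was at -4.00 and Ccnb1 at -4.25, whereas Pcna was at -0.71. The part of dividing cells in the level of Neurog3 was not tested.

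The reads of Pax6 may include some of Pax6os1, which lies on the opposite strand. The library kit kept the strand, but whether the counting used it is not given in the sources used here. Pax6os1 had 23 counts in the control library and 56 under DSS, far fewer than Pax6, with a log2 ratio of 1.67 against 2.10 for Pax6. Its part in the value of Pax6 was not tested.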

How the data were processed

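The authors deposited unnormalized counts of reads per gene for 2 libraries of mIOs, prepared with a strand-keeping mRNA kit. The submitters' processing notes name HISAT2 and StringTie. Their versions, the genome build and the counting settings are not given in the sources used here. A separate file for each sample, whose name says FPKM, repeats these counts for all 19294 genes and was set aside.

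Here, counts were scaled by TMM factors (1.09 for the control, 0.915 for DSS) in edgeR 4.0.16 under R 4.3.3. Intervals are at 95% and cover counting error only: Clopper-Pearson for ratios, Poisson for levels and exact conditional for differences between genes. With 1 library per condition, no p-value was computed. A gene was tested against the fold lines if either library had 10 counts or more. Lengths are means over GENCODE M21 transcripts matched by RefSeq accession.

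The members and lists were chosen with earlier results of these data known. Named are all members, Chga, Chgb, Atoh1 and Lmx1a, and from each list the 3 genes farthest from a log2 ratio of 0 that reached 50 counts. Some genes that this rule names are not reported here. Notch1, Hes1, Myt1, Elavl3, Elavl4, Tubb3, Nefm, Lyz2, Pyy, Scg5, Tac1, Pcsk1n, Mafa, Nkx6-1, the other endocrine factors with lower levels, the relatives of the members, the dividing-cell list and the transcript-length alternative were chosen after seeing the data. So were Hey1, Btbd17, Foxa3, Epcam, Cdh1, Cdx1, Krt8, Krt18 and Krt19.

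The ratios were recomputed with size factors of DESeq2 1.42.0, with upper quartile factors, with no factors, after adding a prior count of 2, after thinning the deeper library, and with other filters and reference lists. The code was tested on simulated data in Python 3.11.15 with scipy 1.17.1.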

Additional observations from a re-analysis of the deposited data

How the results depend on the processing

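The signs of the log2 ratios of all 9 factors, of the Neurog3 differences and of the values per hormone count were kept under every alternative run. Over these settings, Neurog3 ran from -3.40 to -3.05. Of all alternative values computed, 215 stayed inside the counting interval (for list medians, the median bounds of the genes) or, for counts of genes, within 1.5 times the main count, 25 moved beyond it and 2 changed sign. With total counts, which lower every ratio by the same amount, Neurod1 was at 0.89, Insm1 at 1.23, Pax6 at 1.85, Rfx6 at 1.41, Nkx2-2 at 1.54 and Fev at 1.31. The sums were then 0.28 for the early and 1.46 for the late factors. The list medians were -0.028 for the early factors and -0.22 for the intestinal epithelium, both with changed sign, 1.41 for the late factors, 2.32 for hormones and granins, 1.60 for granule and processing genes, 1.01 for enteric glia and -4.09 for dividing cells. Upper quartile factors gave medians of 1.36 for enteric glia and 0.13 for the epithelium. With at least 10 counts in both libraries the islet median was 2.98, and without a filter the mesenchymal median was 0.97, the first on fewer and the second on more genes.

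Set against the granule and processing genes, Neurod1 was at -1.01, Insm1 at -0.67, Rfx6 at -0.48, Nkx2-2 at -0.35 and Fev at -0.59 on the log2 scale. Against the hormones and granins without Chgb, Insm1 was at -1.09 and Rfx6 at -0.90. With the longest protein-coding transcript as the length, Neurog3 took 33.8% of the per-length levels in the control. The order of other factors was not kept. In the control, Nkx2-2 at 10.9% then lay below Fev at 13.3%, Neurod1 at 11.6% and Insm1 at 11.4%. Isl1 at 4.06% lay above Pax6 at 2.77%, and under DSS Fev came before Nkx2-2. The depth limits Pax4, with 19 counts under DSS, most. With 1 library per group, no paired analysis was possible and no replicate could be left out.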

Other observations

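The listed relatives of the factors, taken by gene symbol, had the following values. No other Neurog, Insm or Isl gene was among the listed genes. Neurod2 had 90 counts in the control library and 84 under DSS, and its log2 ratio was 0.29 (interval -0.16 to 0.73), beside 1.14 for Neurod1. Pax8 was at 1.20, with 299 and 526 counts. Rfx6 was the only one of the 6 listed Rfx genes at least 2-fold higher, since Rfx1 was at -0.10, Rfx3 at 0.14, Rfx5 at -0.49, Rfx7 at -0.41 and Rfx2, with 183 and 42 counts, at -1.73. Under total counts, Rfx3 changed sign to -0.11. Of the Nkx genes, Nkx6-3 was at -0.16 and Nkx6-1 had 10 and 6 counts, beside 1.80 for Nkx2-2. These relatives were chosen by symbol after the values of the factors were known, and no hypothesis was tested.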
